A study of Mus musculus with 90 samples.

Results

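The solute carrier (Slc) family was examined in RAW 264.7 cells, a mouse macrophage line, after short exposure to inflammatory stimuli. Its members were taken by name: genes whose single annotated symbol begins with Slc and a digit, without Slc40a1, Slc11a1, Slc11a2, Slc7a2 and Slc7a11. The array table held 184 such genes on 249 rows, and 170 genes on 207 rows had values in at least 2 of the 3 sets of every condition. These 170 genes are part of 11600 features tested in all. By their names 4 of them are not carriers, although they count among the carriers here: Slc39a1-ps is a pseudogene, Slc6a19os an opposite-strand transcript, Slc9a3r2 a regulatory protein and Slc4a1ap an adaptor protein. The 14 genes that did not have enough values (Slc12a3, Slc12a9, Slc22a8, Slc24a3, Slc25a27, Slc25a3, Slc3a1, Slc44a4, Slc46a2, Slc5a4a, Slc5a4b, Slc5a7, Slc6a6 and Slc7a10) are not described further.

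Cells were treated with LPS+IFG, LPS+2MA, LPS, IFG or 2MA for 1, 2 or 4 h, and RNA of each was co-hybridised on a custom Agilent oligonucleotide array with RNA of cells kept in media for the same time. LPS is lipopolysaccharide (100 ng/ml), IFG is interferon gamma (5 nM) and 2MA is the ATP analogue 2-methyl-thio-ATP (500 µM). LPS alone is listed together with lipid binding protein (100 pM), which the labels of the combinations do not name, so its absence and the addition of IFG or 2MA cannot be told apart where a combination is compared with LPS. Each of the 15 conditions had 3 numbered sets, and each set had a pair of arrays with swapped dyes, 90 arrays in all. The labels do not say whether sets were separate cultures or whether treatments shared untreated RNA. The p-values therefore cover only the spread between sets, which may be technical. That spread was pooled over all conditions, so a p can be small where the 3 sets of a condition lie far apart. The line is a single transformed macrophage line in culture.

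Solute carriers are membrane proteins that move small molecules across the plasma membrane or the membranes of organelles, by facilitated diffusion or coupled to gradients of sodium, protons or other ions. They take up sugars, amino acids, nucleosides, vitamins and metal ions, and they also load and unload lysosomes, mitochondria and the Golgi. In macrophages, members of the family are known to handle peptides inside endolysosomes, to supply fuel during activation and to distribute iron, copper and zinc, metals that hosts withhold from or direct at microbes.

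All values are log2 ratios of treated over untreated RNA, so 1 is a 2-fold higher and -1 a 2-fold lower ratio. Both arrays of a set were averaged into 1 replicate, and means are given ± SD over 3 sets. A gene is said to have risen or fallen where its p in limma, adjusted over all features by Benjamini-Hochberg, was under 0.05 and the mean ratio was at least 2-fold. The labels do not state which dye is on top of the ratio; with Cy5 over Cy3, 6 of 6 measured genes known to be raised by LPS lay above 0 after 4 h of LPS (median 3.74), and 4 of 4 known for IFG did after 4 h of IFG (median 3.28), so the direction is likely and not certain. The arrays of a dye-swapped pair correlated above 0 over all rows in 38 of 45 pairs (median 0.27, lowest -0.35, a description across genes). Over the carrier rows alone they did so in 31 of 45 pairs (lowest -0.37, highest 0.83). Arrays give ratios and no levels, so whether a carrier is abundant, and whether the macrophage markers are present, could not be read from them. In bulk RNA, fewer cells of a kind and less RNA per cell cannot be told apart.

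A small set of carriers moved, and most did not. Over the 15 conditions 19 of 170 genes were called at least once (11.2%), close to the 9.78% of all features (1135 of 11600). Of the 19, 14 were only higher, 4 were only lower, and Slc37a2 was called in both directions. A further 78 genes never reached an adjusted p under 0.05 in any condition. All 60 called values had the same sign on every array that measured them.

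With LPS the count of called carriers grew with time. After 1 h 2 of 170 genes were higher (1.18%, against 1.03% of all features) and none was lower (0.0517% of all features). After 2 h 5 were higher (2.94%, against 1.84%) and none lower (0.371% of features). After 4 h 8 were higher (4.71%, against 3.64%) and 2 lower (1.18%, against 1.17%). These shares stand near those of all features, so the family as a whole did not stand out by its count, and the account below rests on single genes. By adjusted p alone 25 carriers were higher after 4 h of LPS (14.7%, against 12.5% of features) and 27 lower (15.9%, against 15.5%). The median size of the log2 ratio, sign left aside, was 0.175 over the carriers, against 0.146 over all features.

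IFG and 2MA alone called few carriers. IFG called none at 1 h (10 at an unadjusted p under 0.05; 0.379% of features were called by limma), 2 higher at 2 h (1.18%, against 1.06%) and 3 higher at 4 h (1.76%, against 1.69%). None was lower with IFG, where 0.0172% of features were lower at 2 h and 0.172% at 4 h. By adjusted p alone 12 carriers were higher after 4 h of IFG (7.06%, against 6.11%) and 8 lower (4.71%, against 5.68%). With 2MA none was called by limma at 1 h (29 at an unadjusted p under 0.05, 0.328% of features called) or at 4 h (17 at an unadjusted p under 0.05, 0.147% of features called), and Slc20a1 alone was higher at 2 h (0.588%, against 0.319% higher and 0.00862% lower of all features).

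LPS+IFG called 3 carriers higher at 1 h (1.76%, against 1.69% of features, with 0.155% of features lower), 5 higher and 1 lower at 2 h (2.94% and 0.588%, against 3.00% and 0.741%), and 7 higher and 3 lower at 4 h (4.12% and 1.76%, against 4.58% and 2.13%). LPS+2MA called 2 higher at 1 h (1.18%, against 1.15%, with 0.0776% of features lower), 5 higher at 2 h (2.94%, against 2.22%, with 0.552% of features lower), and 8 higher and 3 lower at 4 h (4.71% and 1.76%, against 4.69% and 1.90%). By adjusted p alone, LPS+IFG had 26 carriers higher and 36 lower at 4 h (15.3% and 21.2%, against 14.9% and 18.5% of features), and LPS+2MA 29 higher and 27 lower (17.1% and 15.9%, against 14.7% and 18.1%). At 4 h Slc15a3, Slc25a37, Slc28a2, Slc31a2 and Slc39a5 were higher, and Slc19a2 lower, in all 3 conditions that contain LPS.

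**Figure D1:**
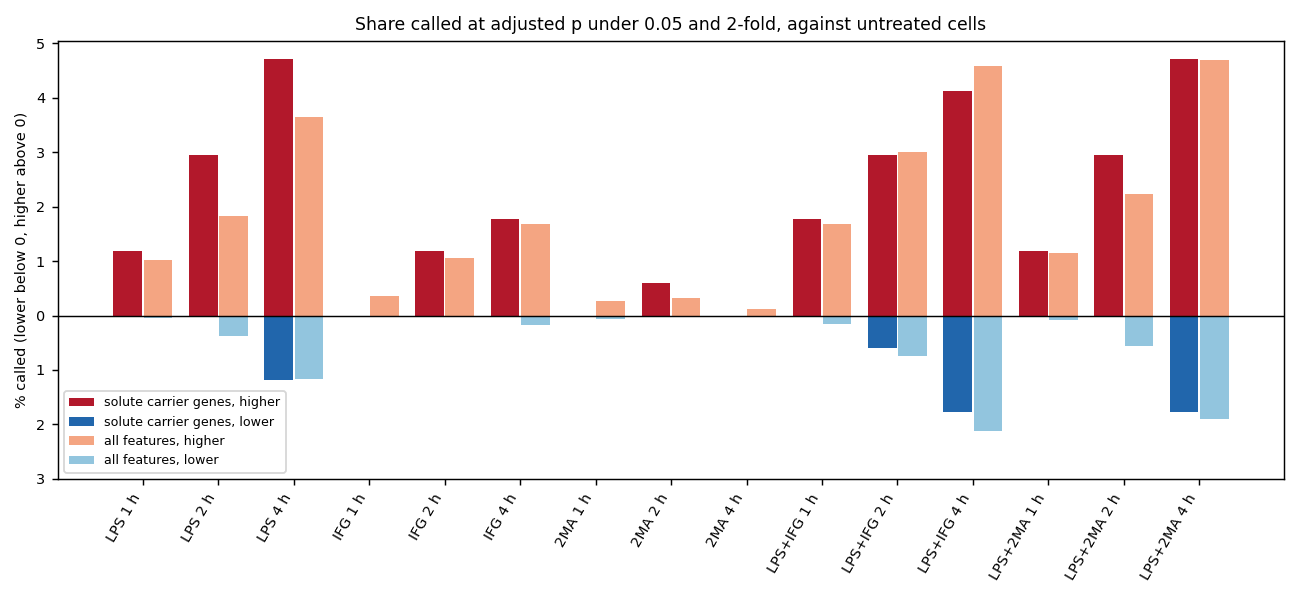
Share of genes called in each condition against untreated cells, in %, with higher genes above 0 and lower genes below 0. In each pair the left bar (dark) is the share of the 170 solute carrier genes and the right bar (pale) that of all 11600 features; at 4 h of LPS the higher shares were 4.71% and 3.64%.

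Promoter windows are shown for 4 carriers with unlike time courses, the IFG- and LPS-raised Slc28a2, the early Slc20a1, the late Slc6a4 and the oppositely moved Slc37a2. They are the bases before the annotated start in RefSeq's promoter table (GRCm38.p6), 5′ to 3′ on the gene's strand, which held windows for 135 of the 170 carriers and none for Slc15a3 and Slc25a37. Capitals mark matches, on either strand, to GGGNNNNNCC (like NF-kB sites), GAAANNGAAA (like interferon-stimulated response elements) or TTCNNNGAA (like gamma-activated sites). The Slc28a2 window is chr2:122426185-122426356 (plus strand), the Slc20a1 window chr2:129198523-129198772 (plus strand), the Slc6a4 window chr11:76998347-76998596 (plus strand) and the Slc37a2 window chr9:37255739-37255988 (minus strand).
Slc28a2: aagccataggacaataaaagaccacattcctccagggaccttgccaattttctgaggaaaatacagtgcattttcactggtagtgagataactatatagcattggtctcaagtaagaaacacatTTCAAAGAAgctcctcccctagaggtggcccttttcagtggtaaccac
Slc20a1: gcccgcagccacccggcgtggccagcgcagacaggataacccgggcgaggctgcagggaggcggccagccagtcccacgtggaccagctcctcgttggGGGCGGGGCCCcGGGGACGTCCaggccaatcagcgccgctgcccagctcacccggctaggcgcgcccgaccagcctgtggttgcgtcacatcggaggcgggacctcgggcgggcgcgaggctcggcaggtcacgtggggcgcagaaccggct
Slc6a4: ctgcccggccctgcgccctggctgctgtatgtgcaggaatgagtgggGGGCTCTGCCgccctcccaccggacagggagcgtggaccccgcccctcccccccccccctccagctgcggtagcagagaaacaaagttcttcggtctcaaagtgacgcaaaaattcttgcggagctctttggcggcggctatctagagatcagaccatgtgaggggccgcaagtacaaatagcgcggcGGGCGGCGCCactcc
Slc37a2: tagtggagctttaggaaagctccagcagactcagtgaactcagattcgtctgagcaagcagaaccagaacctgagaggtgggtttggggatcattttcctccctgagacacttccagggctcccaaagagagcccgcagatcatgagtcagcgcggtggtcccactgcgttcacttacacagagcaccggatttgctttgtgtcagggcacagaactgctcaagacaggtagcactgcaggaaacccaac
Slc28a2 held 1 gamma-activated-like match, Slc20a1 3 NF-kB-like matches of which 2 overlap, Slc6a4 2 NF-kB-like matches, and Slc37a2 none. Such matches are common: of 27025 genes in the table, 48.7% held the NF-kB-like letters in the 250 bases before a start, 3.5% the response-element-like and 8.1% the gamma-activated-like ones. Among the 17 called carriers with a window the counts were 11 (64.7%), 0 and 1 (5.9%), and among the 135 carriers with a window 65.9%, 1.5% and 5.2%. A match is a description of letters, not a binding site, and no match says only that these letters are not in the window.

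The peptide and amino acid carriers were a class of 25 genes with 2 called in at least 1 condition (9.78% of all features were). Slc15a3 had the highest ratios among them. It encodes a proton-coupled transporter that exports histidine and short peptides, including bacterial cell wall fragments, from endolysosomes into the cytosol. Slc15a3 in LPS+IFG cells had ratios of 1.19, 0.96 and 1.27 at 1 h, 2.01, 1.64 and 2.04 at 2 h, and 2.87, 2.53 and 2.85 at 4 h. Slc15a3 in LPS+2MA cells had 1.08, 0.36 and 1.11 at 1 h, 1.82, 1.31 and 1.81 at 2 h, and 2.97, 2.88 and 3.06 at 4 h. With LPS alone Slc15a3 had 1.09, 0.57 and 1.10 at 1 h, 1.76, 1.69 and 1.39 at 2 h, and 2.99, 3.00 and 2.55 at 4 h. Within each condition with LPS every set at 4 h lay above every set at 2 h, and at 4 h the LPS sets overlapped those of both combinations. IFG gave Slc15a3 ratios of 0.22, 0.22 and 0.17 at 1 h, 0.61, 0.50 and 0.36 at 2 h, and 1.12, 1.01 and 1.29 at 4 h. For 2MA the Slc15a3 values were 0.32, 0.05 and 0.18 at 1 h, 0.39, 0.16 and 0.16 at 2 h, and 0.94, 0.66 and 0.62 at 4 h. All IFG and 2MA sets at 4 h lay below all sets with LPS at 4 h, yet above 0. Its mean after 4 h of LPS was 2.85 ± 0.25, a 7.19-fold higher ratio (adjusted p = 2.57e-20), after 4 h of IFG 1.14 ± 0.14 (adjusted p = 2.34e-09; 0.96, under 2-fold, with treated RNA in Cy5 only) and after 4 h of 2MA 0.74 ± 0.17 (adjusted p = 2.03e-04, under 2-fold). Both of its rows on the array gave the same picture, at 2.63 ± 0.13 and 3.06 ± 0.12 (SE) after 4 h of LPS.

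Other amino acid carriers had ratios closer to 0. Slc1a4, a carrier of small neutral amino acids, fell with LPS+IFG at 4 h, with set values of -1.25, -2.02 and -0.37 (adjusted p = 6.07e-05), and its mean without set 2 was -0.81, under 2-fold. The Slc1a4 call was also lost with treated RNA in Cy3 only (-0.62, adjusted p = 0.0503) and with equal array spread (-0.87). Slc3a2, the CD98 heavy chain that brings several amino acid exchangers to the cell surface, averaged 0.50 at 1 h, 0.47 at 2 h and 0.42 at 4 h with LPS, with adjusted p of 0.0014, 0.00143 and 0.00213 and no 2-fold change. Its partner Slc7a5, a carrier of large neutral amino acids, averaged 0.13 at 1 h, 0.31 at 2 h and -0.07 at 4 h with LPS and -0.65 ± 0.44 at 4 h of LPS+IFG (adjusted p = 0.00283, under 2-fold). The cationic amino acid carrier Slc7a1 lay between -0.25 and 0.28 in all 15 condition means, none past the threshold. Slc16a10, which carries aromatic amino acids and is grouped here with the carboxylate carriers of its family, rose at 1 h with LPS+2MA (1.07 ± 0.11, adjusted p = 1.24e-06) and with LPS (1.03 ± 0.15, adjusted p = 2.98e-06). Without set 2 the LPS value was 0.99 and without set 3 0.99, both just under 2-fold, and with treated RNA in Cy5 only Slc16a10 was under 2-fold with LPS+2MA (0.97) and with LPS (0.99). By 4 h of LPS its mean was 0.06 ± 0.30, -0.97 ± 0.21 (SE) relative to 1 h (adjusted p = 7.64e-04).

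Nucleoside carriers had ratios on both sides of 0. Slc28a2, a sodium-coupled concentrative carrier with a preference for purine nucleosides, had the highest mean ratio of the 170 genes. Its window printed among the promoters held the one gamma-activated-like match of the 17 called carriers (5.9%, against 8.1% of all genes with a window). A link of this match to IFG was not tested. In LPS+IFG cells Slc28a2 gave 1.09, 1.28 and 1.04 at 1 h, 2.27, 1.92 and 2.12 at 2 h, and 3.41, 3.21 and 3.59 at 4 h. In LPS+2MA cells Slc28a2 gave 0.16, 0.06 and -0.07 at 1 h, 0.60, 0.40 and 0.54 at 2 h, and 3.00, 3.32 and 3.15 at 4 h. LPS gave Slc28a2 ratios of 0.03, 0.37 and 0.14 at 1 h, 1.06, 1.09 and 0.24 at 2 h, and 3.24, 3.53 and 2.44 at 4 h. Set 3 was the lowest LPS set at 2 and 4 h, and at 1 and 2 h all LPS+IFG sets lay above all LPS sets. IFG alone gave Slc28a2 values of 0.58, 0.81 and 0.84 at 1 h, 1.53, 1.24 and 1.53 at 2 h, and 1.41, 1.48 and 2.20 at 4 h. 2MA gave Slc28a2 values of -0.35, 0.10 and -0.19 at 1 h, 0.03, 0.18 and 0.11 at 2 h, and 0.45, 0.34 and 0.20 at 4 h. Thus IFG sets lay above LPS sets at 1 and 2 h and below them at 4 h. Slc28a2 averaged 3.40 ± 0.19 at 4 h of LPS+IFG (10.6-fold, adjusted p = 1.31e-20), 3.07 ± 0.57 with LPS (8.4-fold, adjusted p = 5.7e-19) and 1.70 ± 0.44 with IFG (3.24-fold, adjusted p = 1.7e-11).

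Slc29a2, an equilibrative nucleoside carrier that works without a sodium gradient, had ratios mostly below 0 and was called in no condition. LPS+IFG gave Slc29a2 -0.55, -0.44 and -0.41 at 1 h, -0.93, -0.94 and -1.10 at 2 h, and -0.95, -0.62 and -0.89 at 4 h. LPS+2MA gave Slc29a2 -0.40, -0.40 and -0.13 at 1 h, -0.48, -0.34 and -0.60 at 2 h, and -0.996, -0.84 and -0.88 at 4 h. LPS gave Slc29a2 -0.19, -0.38 and -0.33 at 1 h, -0.47, -0.50 and -0.28 at 2 h, and -0.96, -0.45 and -0.54 at 4 h. Every set with LPS was below 0, and the lowest mean, -0.99 ± 0.10 at 2 h of LPS+IFG (adjusted p = 6.62e-11), stopped just short of 2-fold. Slc29a2 with IFG had -0.03, -0.06 and 0.07 at 1 h, -0.21, -0.30 and -0.68 at 2 h, and -0.36, -0.30 and -0.49 at 4 h. Slc29a2 with 2MA had 0.04, -0.13 and 0.01 at 1 h, -0.00, -0.08 and -0.01 at 2 h, and -0.34, -0.10 and 0.22 at 4 h. All IFG sets at 2 and 4 h were below 0, and 2MA sets spanned 0 at 1 and 4 h. This gene differed between the dye orientations: at 2 h of LPS+IFG its mean was -1.28 where Cy5 labelled the treated RNA and -0.70 where Cy3 did.

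**Figure D2:**
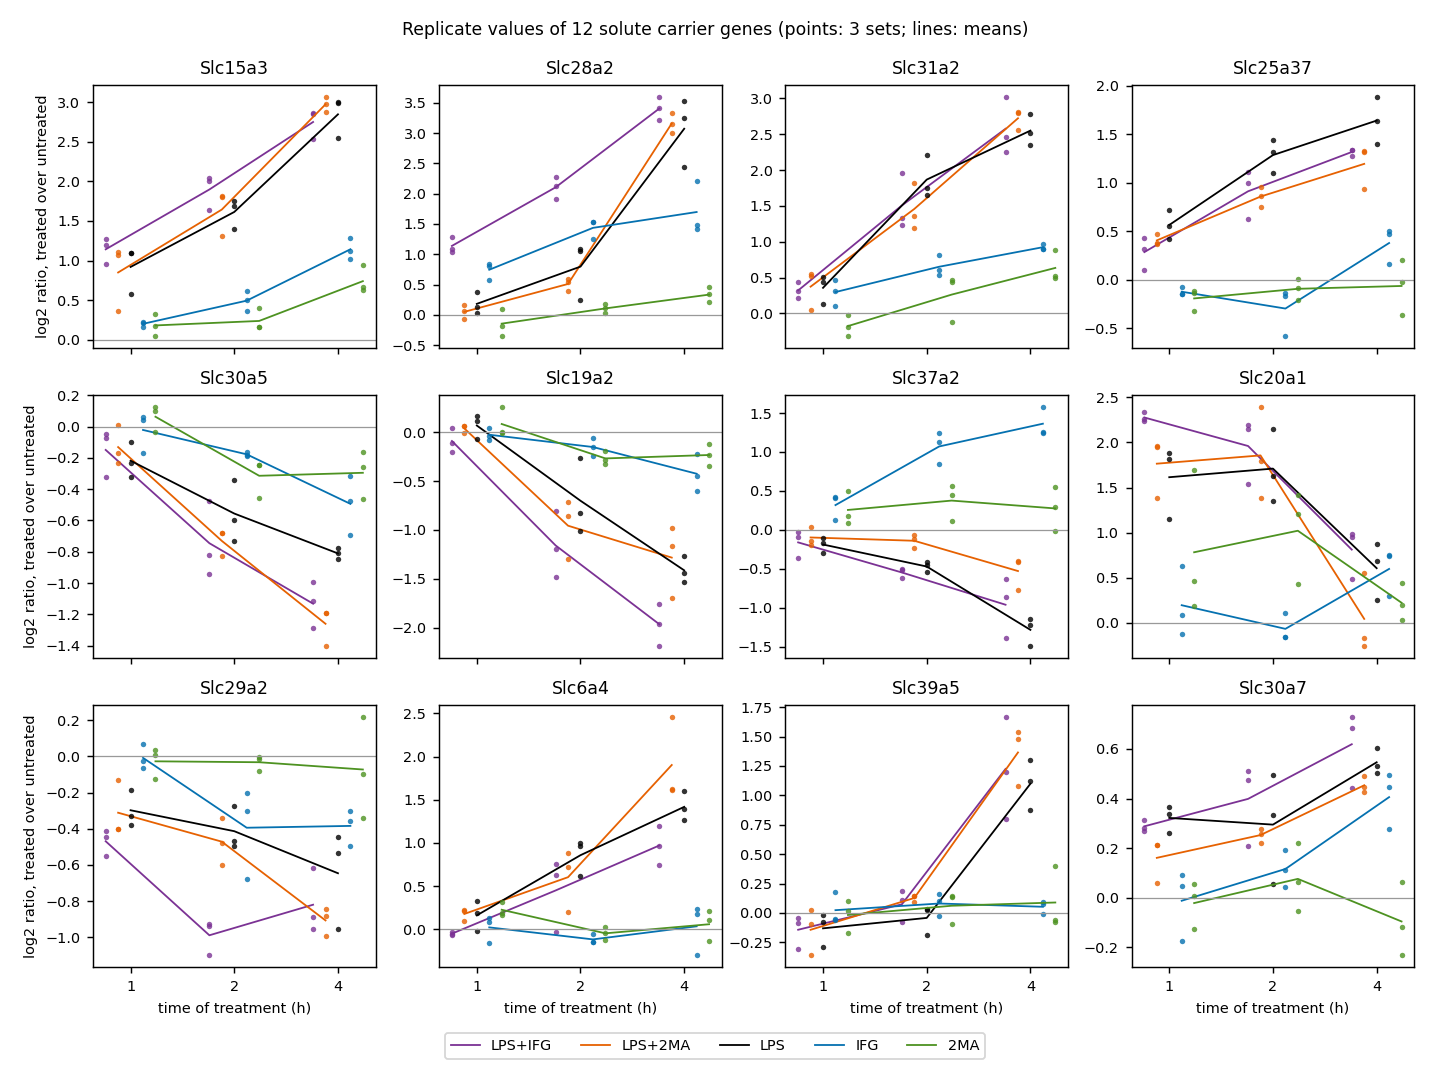
Log2 ratios of treated over untreated RNA for the 12 solute carrier genes with the highest moderated F over the 15 conditions, by time of treatment (1, 2 and 4 h, evenly spaced); points are the 3 sets, lines their means and colours the 5 treatments, and each panel has its own scale. Slc15a3, Slc28a2, Slc31a2 and Slc25a37 climbed with time in the conditions with LPS, Slc20a1 was highest at 1 and 2 h, Slc19a2 and Slc30a5 declined, and Slc37a2 separated LPS (below 0) from IFG (above 0).

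Of 17 metal carriers 4 were called in at least 1 condition (9.78% of all features were). Among them the calls of Slc39a5 and Slc39a13 were not firm, as given below, and no test of the class was made. The mitochondrial iron carrier is described with them, though it belongs to another class. Slc31a2 is a copper transporter homologue of endosomes and lysosomes. Slc31a2 in LPS+IFG cells gave 0.21, 0.44 and 0.31 at 1 h, 1.96, 1.23 and 1.33 at 2 h, and 3.02, 2.25 and 2.46 at 4 h. Slc31a2 in LPS+2MA cells gave 0.55, 0.05 and 0.52 at 1 h, 1.82, 1.36 and 1.19 at 2 h, and 2.80, 2.56 and 2.81 at 4 h. With LPS Slc31a2 gave 0.13, 0.50 and 0.43 at 1 h, 2.20, 1.75 and 1.65 at 2 h, and 2.78, 2.35 and 2.52 at 4 h. At 1 h the mean with LPS was 0.36 ± 0.20 (adjusted p = 0.171), and at 2 and 4 h every set with LPS was above 2-fold. IFG gave Slc31a2 values of 0.11, 0.32 and 0.47 at 1 h, 0.81, 0.60 and 0.54 at 2 h, and 0.90, 0.90 and 0.97 at 4 h. For Slc31a2 2MA gave -0.31, -0.19 and -0.02 at 1 h, 0.47, 0.44 and -0.12 at 2 h, and 0.89, 0.53 and 0.49 at 4 h. The mean at 4 h was 2.55 ± 0.22 with LPS (5.86-fold, adjusted p = 2.17e-17), 0.92 ± 0.04 with IFG (adjusted p = 4.2e-06) and 0.63 ± 0.22 with 2MA (adjusted p = 0.00816), and neither IFG nor 2MA alone reached 2-fold. The plasma membrane copper importer Slc31a1 is not analysed here.

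Slc25a37, mitoferrin, imports iron into mitochondria. Slc25a37 with LPS+IFG gave 0.32, 0.11 and 0.43 at 1 h, 1.12, 1.00 and 0.62 at 2 h, and 1.34, 1.34 and 1.28 at 4 h. Slc25a37 with LPS+2MA gave 0.37, 0.38 and 0.47 at 1 h, 0.96, 0.75 and 0.86 at 2 h, and 0.94, 1.33 and 1.32 at 4 h. Slc25a37 with LPS gave 0.42, 0.55 and 0.72 at 1 h, 1.31, 1.10 and 1.44 at 2 h, and 1.64, 1.88 and 1.40 at 4 h. All 3 LPS sets at 4 h lay above all sets of both combinations. The differences from LPS were -0.32 ± 0.15 (SE) for LPS+IFG and -0.45 ± 0.15 for LPS+2MA. Without the set as a replicate block they had adjusted p of 0.345 and 0.315. These p leave out the pairing of same-numbered sets, so they do not show that the conditions were alike. Slc25a37 with IFG stood at -0.15, -0.14 and -0.07 at 1 h, -0.17, -0.58 and -0.14 at 2 h, and 0.16, 0.47 and 0.50 at 4 h. Slc25a37 with 2MA stood at -0.33, -0.12 and -0.13 at 1 h, -0.09, -0.20 and 0.01 at 2 h, and -0.03, 0.20 and -0.36 at 4 h. With equal array spread the LPS+2MA call at 4 h was lost (0.995). Neither IFG nor 2MA alone gave 2-fold, and after 4 h its mean was 1.64 ± 0.24 with LPS (3.12-fold, adjusted p = 1.22e-15) and 0.38 ± 0.19 with IFG (adjusted p = 0.00941). It was the one called gene of 22 mitochondrial carriers, where 9.78% of all features were called in at least 1 condition.

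Of the zinc exporters that fill the secretory pathway, Slc30a5 and Slc30a7 had ratios of mostly opposite sign. Slc30a5, which moves zinc into the Golgi and secretory vesicles, gave -0.08, -0.32 and -0.05 at 1 h, -0.82, -0.94 and -0.48 at 2 h, and -1.29, -0.995 and -1.11 at 4 h with LPS+IFG. LPS+2MA gave Slc30a5 -0.17, -0.23 and 0.01 at 1 h, -0.68, -0.83 and -0.68 at 2 h, and -1.19, -1.19 and -1.40 at 4 h. LPS alone gave Slc30a5 -0.23, -0.32 and -0.10 at 1 h, -0.60, -0.73 and -0.34 at 2 h, and -0.78, -0.81 and -0.84 at 4 h. At 4 h all sets of both combinations lay below all LPS sets, and Slc30a5 fell with LPS+IFG (-1.13 ± 0.15, adjusted p = 1.12e-13) and LPS+2MA (-1.26 ± 0.12, adjusted p = 6e-15) while LPS gave -0.81 ± 0.03 (adjusted p = 7.85e-10), under 2-fold. With equal array spread the Slc30a5 value for LPS+IFG was -0.88, under 2-fold as well. The differences from LPS were -0.32 ± 0.12 (SE) for LPS+IFG, with adjusted p = 0.172, or 0.0284 with the set as a replicate block, and -0.45 ± 0.12 for LPS+2MA, with adjusted p = 0.122, or 0.00846 with that block. IFG gave Slc30a5 0.04, -0.17 and 0.06 at 1 h, -0.18, -0.19 and -0.16 at 2 h, and -0.69, -0.47 and -0.31 at 4 h. 2MA gave Slc30a5 0.10, -0.03 and 0.13 at 1 h, -0.46, -0.24 and -0.24 at 2 h, and -0.46, -0.26 and -0.17 at 4 h. Both agents alone had every set below 0 from 2 h on, without a 2-fold change.

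Slc30a7, which fills the Golgi with zinc, had ratios mostly above 0 and never reached 2-fold. LPS+IFG gave Slc30a7 0.28, 0.31 and 0.27 at 1 h, 0.51, 0.21 and 0.48 at 2 h, and 0.68, 0.44 and 0.73 at 4 h. LPS+2MA gave Slc30a7 0.21, 0.21 and 0.06 at 1 h, 0.26, 0.22 and 0.28 at 2 h, and 0.49, 0.42 and 0.45 at 4 h. LPS gave Slc30a7 0.34, 0.37 and 0.26 at 1 h, 0.49, 0.33 and 0.06 at 2 h, and 0.53, 0.50 and 0.60 at 4 h. Every set with LPS was above 0, up to a mean of 0.62 ± 0.16 at 4 h of LPS+IFG (adjusted p = 1.32e-08). Slc30a7 under IFG had 0.05, -0.17 and 0.09 at 1 h, 0.11, 0.04 and 0.19 at 2 h, and 0.44, 0.28 and 0.50 at 4 h. Slc30a7 under 2MA had -0.12, 0.05 and 0.01 at 1 h, -0.05, 0.06 and 0.22 at 2 h, and 0.06, -0.23 and -0.12 at 4 h. Only the IFG sets at 4 h passed the p threshold among these (0.41 ± 0.11, adjusted p = 1.19e-04). Slc30a1, which exports zinc across the plasma membrane, averaged -0.07 at 1 h, 0.48 at 2 h and 0.74 at 4 h with LPS (adjusted p at 4 h = 1.30e-04) and was likewise called in no condition.

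Slc39a5, a zinc importer, was measured by a pair of rows that disagreed, so its gene mean joins unlike values. Its gene means in sets were -0.04, -0.31 and -0.08 at 1 h, 0.11, -0.07 and 0.19 at 2 h, and 1.67, 1.20 and 0.80 at 4 h with LPS+IFG. LPS+2MA gave Slc39a5 -0.09, -0.36 and 0.02 at 1 h, 0.14, 0.15 and 0.09 at 2 h, and 1.48, 1.54 and 1.08 at 4 h. LPS gave Slc39a5 -0.02, -0.29 and -0.08 at 1 h, 0.04, 0.03 and -0.19 at 2 h, and 1.30, 1.12 and 0.87 at 4 h. In these 3 conditions Slc39a5 was called at 4 h and not at 1 or 2 h, and every set at 4 h lay above all sets at 1 and 2 h. The LPS call was lost without set 1 (0.997) and with equal array spread (0.89), and the LPS+IFG call with equal array spread (0.93). IFG gave Slc39a5 0.18, -0.06 and -0.05 at 1 h, 0.10, -0.03 and 0.16 at 2 h, and 0.08, -0.01 and 0.09 at 4 h. 2MA gave Slc39a5 0.02, -0.17 and 0.10 at 1 h, 0.15, -0.09 and 0.13 at 2 h, and 0.40, -0.08 and -0.06 at 4 h. One row carried the whole of the rise: it stood at 2.52 ± 0.20 (SE) with LPS+IFG, 2.89 ± 0.20 with LPS+2MA and 2.14 ± 0.20 with LPS, where the other row had -0.07 ± 0.12, -0.16 ± 0.12 and 0.06 ± 0.12. Which row reports the Slc39a5 transcript was not tested. Slc39a13, a zinc carrier of the early secretory pathway, rose with LPS+2MA at 2 h (1.49, 1.14 and 0.45, adjusted p = 3.29e-07), with values under 2-fold without set 1 (0.79) or set 2 (0.97), with treated RNA in Cy5 only (0.86) or with equal array spread (0.97), and had 0.94 ± 0.17 at 2 h of LPS (adjusted p = 2.37e-06). The zinc importer Slc39a14 is not analysed here. Of 3 metallothionein-list genes measured, the zinc-binding proteins and their regulator, none was called in any condition.

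**Figure D3:**
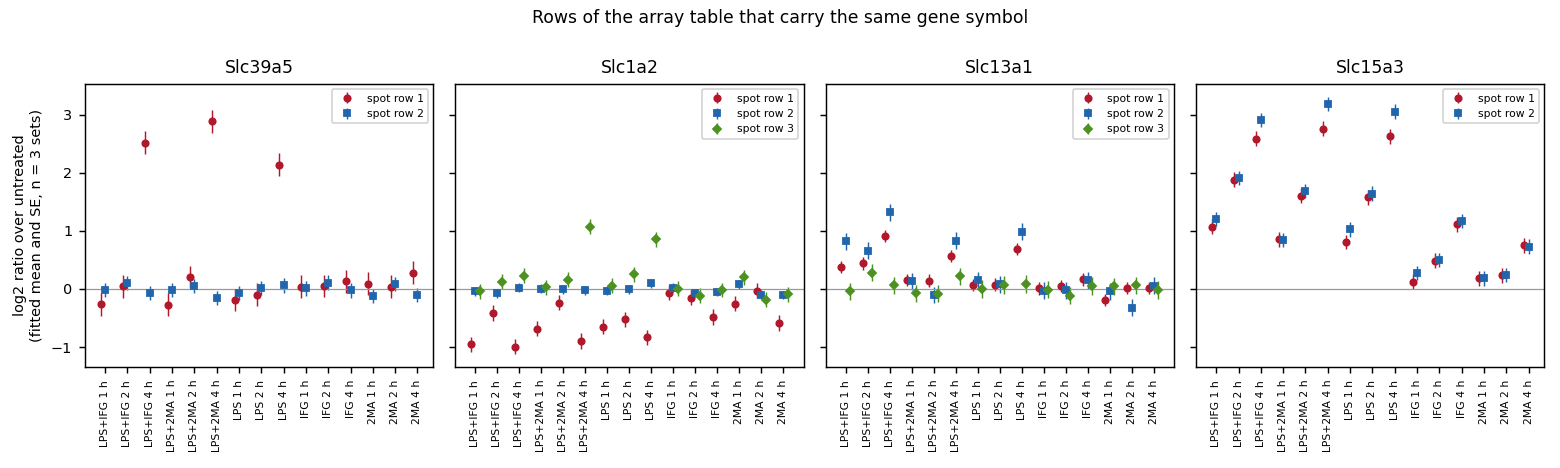
Fitted log2 ratios of treated over untreated RNA (± SE, 3 sets) for the separate array rows that carry the same symbol, in the 15 conditions, for Slc39a5, Slc1a2, Slc13a1 and Slc15a3. The rows of Slc39a5 separate at 4 h with LPS (2.89 and -0.16 with LPS+2MA), those of Slc1a2 take opposite signs, and those of Slc15a3 run together.

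Several rows measured 31 of the 170 genes, and for 6 of these some rows were called where others were not. Gaps between rows above 1 on the log2 scale occurred in 4 genes: Slc39a5 (above), Slc1a2, Slc13a1 and Slc4a3. The glutamate carrier Slc1a2 had rows at -0.90 ± 0.13, -0.02 ± 0.07 and 1.08 ± 0.13 (SE) after 4 h of LPS+2MA. The sulfate carrier Slc13a1 had 0.91 ± 0.11, 1.32 ± 0.15 and 0.06 ± 0.15 after 4 h of LPS+IFG. The anion exchanger Slc4a3 had -0.97 ± 0.15, 0.08 ± 0.16 and 0.13 ± 0.16 after 4 h of LPS+2MA. For these genes the mean over rows does not describe any single row.

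Slc20a1 changed early. It is a sodium-phosphate cotransporter of the plasma membrane that also serves as a retrovirus receptor. Slc20a1 in LPS+IFG cells had 2.24, 2.34 and 2.26 at 1 h, 1.54, 2.19 and 2.15 at 2 h, and 0.49, 0.96 and 0.99 at 4 h. LPS+2MA gave Slc20a1 1.96, 1.39 and 1.95 at 1 h, 1.38, 2.39 and 1.79 at 2 h, and -0.17, -0.25 and 0.56 at 4 h. LPS gave Slc20a1 1.88, 1.15 and 1.82 at 1 h, 1.35, 1.63 and 2.14 at 2 h, and 0.26, 0.68 and 0.88 at 4 h. All sets with LPS were above 2-fold at 1 and 2 h, and all were under 2-fold at 4 h, where LPS+2MA sets spanned 0. IFG gave Slc20a1 0.63, 0.08 and -0.12 at 1 h, -0.16, 0.12 and -0.15 at 2 h, and 0.30, 0.74 and 0.76 at 4 h. 2MA gave Slc20a1 1.69, 0.19 and 0.47 at 1 h, 1.21, 1.42 and 0.43 at 2 h, and 0.03, 0.44 and 0.20 at 4 h. The 2MA sets were far apart, with set 1 high at 1 h and set 3 low at 2 h. Slc20a1 averaged 2.28 ± 0.05 (4.84-fold, adjusted p = 2.12e-10) after 1 h of LPS+IFG and 1.61 ± 0.41 (3.06-fold, adjusted p = 1.05e-06) after 1 h of LPS. The 2MA value at 2 h, 1.02 ± 0.52 (adjusted p = 0.00673), was the one call of a carrier with 2MA alone; without set 1 it was 0.93 (adjusted p = 0.285) and without set 2 0.82 (adjusted p = 0.136), and with treated RNA in Cy5 only 0.73.

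Slc37a2, of the sugar phosphate carriers, moved in opposite directions with LPS and IFG. It is a sugar phosphate and phosphate exchanger of the endoplasmic reticulum membrane, known as abundant in macrophages. Slc37a2 in LPS+IFG cells had -0.37, -0.03 and -0.09 at 1 h, -0.62, -0.51 and -0.51 at 2 h, and -0.63, -0.86 and -1.39 at 4 h. LPS+2MA gave Slc37a2 -0.14, -0.19 and 0.04 at 1 h, -0.24, -0.12 and -0.06 at 2 h, and -0.40, -0.41 and -0.78 at 4 h. LPS gave Slc37a2 -0.30, -0.16 and -0.11 at 1 h, -0.46, -0.55 and -0.41 at 2 h, and -1.14, -1.23 and -1.49 at 4 h. Every LPS set was below 0 at all times, and at 4 h every LPS+2MA set lay above every LPS set. IFG gave Slc37a2 0.13, 0.41 and 0.42 at 1 h, 1.24, 1.13 and 0.85 at 2 h, and 1.25, 1.58 and 1.26 at 4 h. 2MA gave Slc37a2 0.17, 0.09 and 0.50 at 1 h, 0.56, 0.12 and 0.45 at 2 h, and 0.55, -0.02 and 0.30 at 4 h. Every IFG set was above 0, so the IFG and LPS sets did not overlap at any time. At 4 h Slc37a2 fell with LPS (-1.28 ± 0.18, 2.44-fold lower, adjusted p = 1e-11) and rose with IFG (1.36 ± 0.19, 2.57-fold higher, adjusted p = 7.23e-12). With both agents together it stood at -0.96 ± 0.39 (adjusted p = 6.47e-09, under 2-fold), 0.32 ± 0.16 (SE) from LPS alone (adjusted p = 0.451). The rise with IFG at 2 h (1.07 ± 0.20) was 0.99 without set 1, just under 2-fold.

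Its relative Slc37a3 rose with LPS+IFG at 4 h (1.74, 0.86 and 1.80, mean 1.47 ± 0.53, adjusted p = 7.7e-11), against 0.72 ± 0.28 with LPS (adjusted p = 1.15e-04). Slc2a1, the widely expressed glucose importer, rose with LPS+IFG at 2 h (1.01, 1.25 and 1.03, adjusted p = 2.62e-06). With LPS Slc2a1 averaged 0.63 at 1 h, 0.83 at 2 h and 0.52 at 4 h, each with an adjusted p under the threshold and none at 2-fold. The LPS+IFG ratio was 1.42 where Cy5 labelled the treated RNA and 0.78, under 2-fold, where Cy3 did, and 0.94 with equal array spread. Slc2a1 lacked set 1 at 4 h of LPS+IFG, LPS+2MA, IFG and 2MA. Slc5a3, a sodium-coupled importer of the osmolyte myo-inositol, fell with LPS+2MA at 4 h (-1.52, -1.83 and -0.95, adjusted p = 3.65e-05), and gave -0.96 ± 0.49 with LPS (adjusted p = 0.00477). Slc16a3, which exports the lactate of glycolysis, was not past the threshold in any condition, with sets as far apart as -0.95, 0.21 and 0.35 at 4 h of LPS+IFG. The hexose carrier Slc2a6 is not analysed here. Of 10 glycolysis enzymes measured, Pfkfb3 fell with LPS+IFG at 2 h (-1.28 ± 0.63, adjusted p = 4.69e-07) and Pfkp rose with it at 4 h (1.04 ± 0.14, adjusted p = 5.57e-08), and no other was called in any condition.

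Slc19a2, a thiamine importer, had the lowest mean ratio of the 170 carriers. LPS+IFG gave Slc19a2 -0.21, -0.11 and 0.04 at 1 h, -1.48, -1.19 and -0.80 at 2 h, and -2.18, -1.96 and -1.75 at 4 h. LPS+2MA gave Slc19a2 -0.01, 0.06 and 0.06 at 1 h, -1.30, -0.86 and -0.71 at 2 h, and -1.16, -0.98 and -1.70 at 4 h. LPS gave Slc19a2 0.16, -0.07 and 0.11 at 1 h, -0.82, -1.01 and -0.27 at 2 h, and -1.54, -1.44 and -1.26 at 4 h. With LPS present values lay around 0 at 1 h, below 0 in every set at 2 h, and at -0.98 or lower in every set at 4 h. IFG gave Slc19a2 0.04, -0.04 and -0.08 at 1 h, -0.15, -0.24 and -0.06 at 2 h, and -0.22, -0.61 and -0.45 at 4 h. 2MA gave Slc19a2 0.26, -0.00 and -0.01 at 1 h, -0.19, -0.33 and -0.29 at 2 h, and -0.34, -0.13 and -0.23 at 4 h. Slc19a2 fell to -1.96 ± 0.22 with LPS+IFG (3.9-fold lower, adjusted p = 4.04e-16), against -1.41 ± 0.14 with LPS (adjusted p = 4.55e-12). Their sets did not overlap, and the difference of -0.55 ± 0.17 (SE) had an adjusted p of 0.0627, or 0.0186 with the set as a replicate block, at under 2-fold. The fall at 2 h of LPS+IFG (-1.16 ± 0.34) was -0.997 without set 1 and -0.92 with treated RNA in Cy3 only.

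Slc6a4, the plasma membrane serotonin transporter, rose late in the mean of its 2 rows. The rows differed most at 2 h of LPS (0.61 and 1.11), and in 2 conditions 1 row was called and the other was not. LPS+IFG gave Slc6a4 -0.03, -0.06 and -0.06 at 1 h, 0.63, 0.75 and -0.03 at 2 h, and 1.20, 0.96 and 0.75 at 4 h. LPS+2MA gave Slc6a4 0.23, 0.21 and 0.10 at 1 h, 0.89, 0.73 and 0.20 at 2 h, and 1.62, 1.63 and 2.46 at 4 h. LPS gave Slc6a4 0.19, 0.32 and -0.02 at 1 h, 0.97, 1.00 and 0.61 at 2 h, and 1.60, 1.27 and 1.39 at 4 h. At 4 h all LPS+IFG sets lay below all LPS sets, and all LPS+2MA sets lay above them, set 3 by the widest margin. IFG gave Slc6a4 0.14, 0.09 and -0.16 at 1 h, -0.15, -0.15 and -0.05 at 2 h, and 0.17, 0.23 and -0.30 at 4 h. 2MA gave Slc6a4 0.32, 0.17 and 0.19 at 1 h, 0.02, -0.04 and -0.12 at 2 h, and 0.21, 0.10 and -0.14 at 4 h. The mean at 4 h was 1.90 ± 0.49 with LPS+2MA (adjusted p = 1.79e-14) and 1.42 ± 0.17 with LPS (adjusted p = 5.74e-11), and it stayed under 2-fold with LPS+IFG (0.97 ± 0.23, adjusted p = 1.82e-07). The differences from LPS, 0.48 ± 0.19 and -0.45 ± 0.19 (SE), had adjusted p of 0.595 and 0.278 without the set as a replicate block. As the pairing of same-numbered sets is left out there, these p do not show that the conditions were alike.

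Among ion carriers, the potassium-chloride cotransporter Slc12a4 rose with LPS+2MA and LPS. Slc12a4 with LPS+2MA gave -0.03, 0.58 and 0.31 at 1 h, 0.86, 1.79 and 0.73 at 2 h, and 1.15, 1.53 and 1.22 at 4 h. With LPS Slc12a4 gave 0.34, 0.20 and 0.18 at 1 h, 1.17, 0.76 and 1.27 at 2 h, and 1.00, 1.39 and 1.17 at 4 h. LPS+IFG gave 0.94 ± 0.64 at 2 h and 0.69 ± 0.12 at 4 h (adjusted p = 9.39e-05 and 0.00203), under 2-fold. The 2 h calls depended on single sets: LPS+2MA gave 0.79 without set 2, and LPS 0.97 without set 3. With treated RNA in Cy5 only the LPS+2MA value at 2 h was 0.75, and with equal array spread the LPS value at 4 h was 0.95, both under 2-fold. Its relative Slc12a7 had its highest mean with IFG at 2 h (0.86 ± 0.07, adjusted p = 2.43e-08) and -0.20 ± 0.26 with LPS at that time (adjusted p = 0.176), and was called in no condition.

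In the organic ion carriers, Slc22a17, known as a receptor for the siderophore-binding protein lipocalin, rose at 4 h with LPS+2MA (1.34, 0.78 and 1.92, adjusted p = 5.38e-07) and LPS (1.10, 0.59 and 1.60, adjusted p = 2.52e-05). Set 2 was the lowest and set 3 the highest in both, and without set 3 the LPS value was 0.85, under 2-fold. With treated RNA in Cy5 only Slc22a17 was at 0.97 with LPS+2MA and 0.71 with LPS, and with equal array spread at 0.94 with LPS, none at 2-fold. The carnitine importer Slc22a5 had -0.53 ± 0.11 with LPS+2MA at 4 h (adjusted p = 2.43e-07) and -0.38 ± 0.09 with LPS (adjusted p = 8.4e-05), with no 2-fold change in any condition. Slc33a1, which carries acetyl-CoA into the endoplasmic reticulum, rose with LPS+IFG at 4 h only (1.73, 0.82 and 1.29, adjusted p = 1.73e-08); its means in the other conditions lay between -0.21 and 0.29.

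Remaining classes had no called member, where 9.78% of all features were called in at least 1 condition. Of 13 nucleotide sugar carriers, which supply the Golgi with sugars for glycosylation, the UDP-galactose carrier Slc35a2 had the highest F, with a highest mean of 0.34 ± 0.06 at 1 h of 2MA (adjusted p = 0.0133). The urea carrier Slc14a1 averaged -0.33 ± 0.14 at 1 h of LPS+IFG (adjusted p = 0.00803) and -0.30 ± 0.16 at 1 h of LPS (adjusted p = 0.0221). Slc66a2, a gene with no class assigned here, had means between -0.10 and 0.28, none past the threshold. The endolysosomal histidine and peptide carrier Slc15a4, which signals from endosomal Toll-like receptors need, is not analysed here.

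A direct comparison of LPS with IFG at 4 h called 8 carriers higher in LPS (4.71%, against 2.09% of all features) and 1 lower (0.588%, against 0.638%). Slc37a2 had the widest gap, -2.65 ± 0.16 (SE; adjusted p = 5.38e-15). The higher ones were Slc15a3 (1.70 ± 0.17, adjusted p = 1.43e-09), Slc31a2 (1.63 ± 0.20, adjusted p = 9.71e-08), Slc6a4 (1.38 ± 0.19), Slc28a2 (1.37 ± 0.21), Slc25a37 (1.26 ± 0.15), Slc12a4 (1.19 ± 0.25), Slc39a5 (1.05 ± 0.16) and Slc22a17 (1.01 ± 0.28). The calls of Slc22a17 and Slc39a5 rested on single sets. Slc22a17 had 0.76 without LPS set 3 (adjusted p = 0.119) and 0.87 without IFG set 2 (adjusted p = 0.088), and Slc39a5 had 0.94 without LPS set 1. With treated RNA in Cy5 only the calls of Slc22a17 (0.94) and Slc39a5 (0.98) were lost, and in Cy3 only that of Slc12a4 (1.12, adjusted p = 0.122). After scaling each array to an equal spread, Slc12a4 (0.94), Slc22a17 (0.84), Slc25a37 (0.97), Slc28a2 (0.85, adjusted p = 0.0579) and Slc39a5 (0.83) were under 2-fold.

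**Figure D4:**
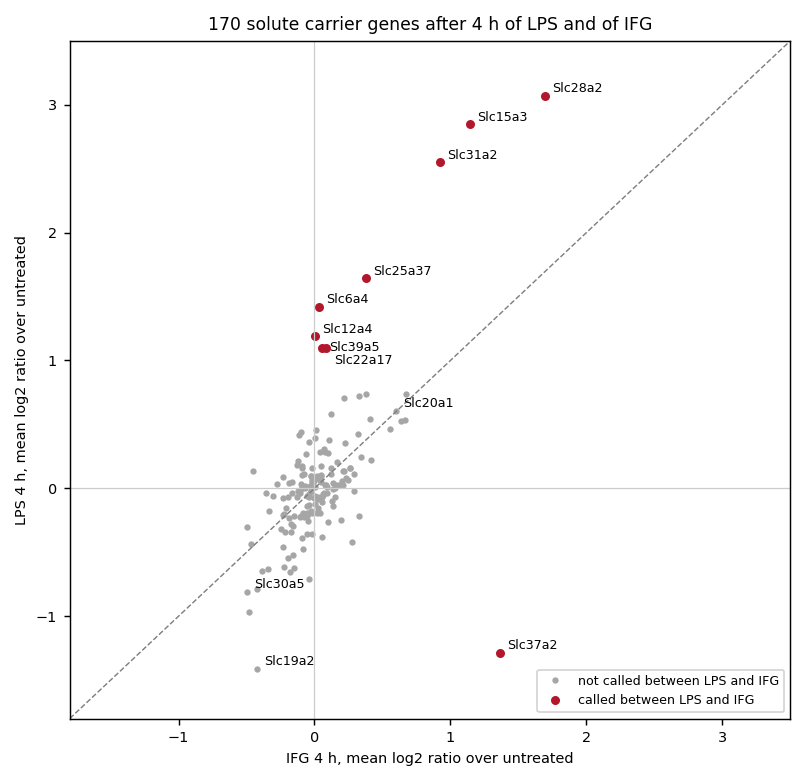
Mean log2 ratio over untreated cells after 4 h of LPS (vertical axis) and of IFG (horizontal axis) for 170 solute carrier genes; the dashed line marks equal ratios, and red points are the 9 genes called between LPS and IFG. Slc28a2, Slc15a3 and Slc31a2 lie above 0 on both axes and nearer the LPS axis, and Slc37a2 alone lies far below the line, at -1.28 with LPS and 1.36 with IFG.

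LPS at 4 h set against LPS at 1 h called 7 carriers higher (4.12%, against 2.75% of features) and 3 lower (1.76%, against 0.931%). Those higher at 4 h were Slc28a2, Slc31a2, Slc15a3, Slc6a4, Slc39a5, Slc22a17 and Slc25a37. Those lower at 4 h were Slc19a2, Slc37a2 and Slc20a1, and of these Slc20a1 was itself raised by LPS at 1 h. The Slc20a1 difference was -1.01 ± 0.31 (SE, adjusted p = 0.0202), and it missed the threshold without LPS set 1 at 1 h (-0.87), set 3 at 1 h (-0.91) or set 1 at 4 h (-0.83), and with treated RNA in Cy3 only (-0.84). Without LPS set 3 at 4 h the calls of Slc22a17 (0.92) and Slc37a2 (-0.995) were lost, and without set 2 at 4 h that of Slc25a37 (0.95). With equal array spread Slc25a37 (0.60), Slc22a17 (0.94), Slc37a2 (-0.84) and Slc6a4 (0.999) were under 2-fold. With IFG 1 carrier was higher at 4 h than at 1 h (0.588%, against 1.10%) and none lower (0.147% of features); it was Slc37a2 (1.05 ± 0.16, adjusted p = 2.28e-05), with 0.95 without IFG set 1 at 1 h and 0.94 without set 2 at 4 h, and 0.81 with equal array spread. Sets of 4 h and 1 h were not paired.

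LPS+IFG differed from LPS in single carriers. At 1 h none was called by limma (5 at an unadjusted p under 0.05; 0.655% of features were called), with Slc28a2 closest at 0.96 ± 0.21 (SE, adjusted p = 0.006), under 2-fold. At 2 h 1 was higher (0.588%, against 0.871%) and none lower (0.0690% of features): Slc28a2, at 1.31 ± 0.21 (adjusted p = 4.46e-05). At 4 h 1 was higher (0.588%, against 0.810%) and none lower (0.224% of features): Slc33a1, at 1.30 ± 0.22 (adjusted p = 1.31e-04). By then the Slc28a2 difference was 0.33 ± 0.21 (adjusted p = 0.69). Past the p threshold but under 2-fold at 2 h were Slc29a2 (-0.58 ± 0.13, adjusted p = 0.00719) and Slc6a12 (-0.55 ± 0.10, adjusted p = 6.40e-04), and at 4 h Slc37a3 (0.75 ± 0.20, adjusted p = 0.0225), Slc52a3 (0.47 ± 0.13, adjusted p = 0.0323) and Slc6a12 (-0.80 ± 0.10, adjusted p = 1.14e-06). Slc6a12, a carrier of betaine and GABA, and Slc52a3, a riboflavin carrier, are named after their values were seen, to complete these counts. These lists are of the fit without the replicate block. With that block Slc30a5 and Slc19a2 also passed the p threshold at 4 h under 2-fold, as given with those genes.

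LPS+2MA set against LPS gave no called carrier. None was called by limma at 1 h (3 at an unadjusted p under 0.05, 0.0690% of features called), at 2 h (11 at an unadjusted p under 0.05, 0.0259% of features called) or at 4 h (11 at an unadjusted p under 0.05, 0.112% of features called). At 4 h Slc37a2 (0.76 ± 0.16, adjusted p = 0.0341) and the zinc importer Slc39a8 (0.62 ± 0.13, adjusted p = 0.0253, named after its value was seen) passed the p threshold under 2-fold (SE). This holds for the fit without the replicate block. With that block Slc30a5 also passed the p threshold at 4 h under 2-fold, as given with that gene. Slc15a3, Slc28a2 and Slc31a2 differed by 0.13 ± 0.17, 0.09 ± 0.21 and 0.17 ± 0.20 at 4 h, less than 1 SE in each (adjusted p = 1.00 in all 3).

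Other transport systems and cell markers were counted in the same way, where 9.78% of all features were called in at least 1 condition. Of 31 ABC transporters measured, Abcg1, a cholesterol exporter, fell with LPS+2MA at 2 h (-1.27 ± 0.31, adjusted p = 6.46e-06), and no other was called in any condition. Of 25 P-type ATPases the calcium pump Atp2b1 rose with LPS+2MA at 2 h (1.36 ± 0.13, adjusted p = 6.37e-11) and 4 h (1.21 ± 0.39, adjusted p = 3.62e-10), of 11 V-type ATPase subunits Atp6v0a1 rose with LPS+IFG at 2 h (1.06 ± 0.03, adjusted p = 1.85e-09), and of 7 organic anion transporting polypeptides none was called. Among 5 macrophage markers measured, Fcgr1, an Fc receptor, rose at 4 h with LPS+IFG (1.73 ± 0.06, adjusted p = 2.96e-16), LPS+2MA (1.97 ± 0.20, adjusted p = 8.64e-18), LPS (1.90 ± 0.23, adjusted p = 3.64e-17) and IFG (1.68 ± 0.42, adjusted p = 3.2e-15) and at 2 h with IFG (1.51 ± 0.13, adjusted p = 1.35e-13), and Csf1r, the growth factor receptor of the lineage, fell at 4 h with LPS+IFG (-1.29 ± 0.25, adjusted p = 1.68e-12) and LPS+2MA (-1.08 ± 0.42, adjusted p = 1.79e-10). No measured T cell (5), B cell (4), fibroblast (6) or neutrophil (6) marker was called in any condition; the part of a shift in cell makeup in the carrier ratios was not tested.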

How the data were processed

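RNA of RAW 264.7 cells was measured on 90 arrays, each with treated and untreated RNA in different dyes. The deposited values are log2 ratios, taken as Cy5 over Cy3; image reading, background correction and normalization are not given in the sources used here. Exact zeros (7.84% to 17.0% of an array) were treated as missing, the sign was turned on arrays with treated RNA in Cy3, the arrays of a dye-swapped pair were averaged (both required), and rows with the same symbol were averaged. Rows with fewer than 2 sets in any condition were left out. Gene names come from the platform annotation, and the gene identifiers of all 170 carriers are in RefSeq. Of 16281 rows, 13738 have 1 symbol, 52 several and 2491 none.

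A limma group-means fit (limma 3.58.1, R 4.3.3) over 15 conditions and 45 replicates gave moderated tests for 24 comparisons, with Benjamini-Hochberg adjustment within each over 11600 features; residual degrees of freedom were at most 30. The fit was tested on simulated data. The members and lists were chosen with earlier results of these data known. Named carriers were those called (at most 8 each way per condition and 5 per comparison of conditions) with the same sign on every array, the class member with the highest F, a fixed set known in macrophages, and genes whose rows differ; every set is printed for the 12 highest F. Deviations of same-numbered sets from their condition means, across rows, correlated above 0.1 in 85 of 90 pairs between treatments at the same time. Those of LPS and a combination did so in 18 of 18, and those of LPS and IFG at 4 h in 3 of 3. A replicate block was therefore fitted for these comparisons. Their differences are given without that block except where it is named. Such deviations of 4 h and 1 h sets correlated above 0.1 in 2 of 6 pairs. Alternatives were equal array spread, single dye orientations, a dye term, zeros kept, complete values, single rows and each set left out. The number of arrays limits precision.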

Additional observations from a re-analysis of the deposited data

Results flagged for a closer look

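The ratio over untreated cells differed between 4 h and 1 h of the same agent, by limma's test of the difference itself (SE, 3 sets each), in these carriers. With LPS the 4 h ratio was higher for Slc28a2 by 2.89 ± 0.21 (3.07 at 4 h against 0.18 at 1 h, adjusted p = 2.72e-13), Slc31a2 by 2.19 ± 0.20 (2.55 at 4 h against 0.36 at 1 h, adjusted p = 6.85e-11), Slc15a3 by 1.93 ± 0.17 (2.85 at 4 h against 0.92 at 1 h, adjusted p = 4.99e-11). It was also higher for Slc6a4 by 1.26 ± 0.19 (1.42 at 4 h against 0.16 at 1 h, adjusted p = 4.55e-06), Slc39a5 by 1.23 ± 0.16 (1.10 at 4 h against -0.13 at 1 h, adjusted p = 1.65e-07), Slc22a17 by 1.17 ± 0.28 (1.10 at 4 h against -0.07 at 1 h, adjusted p = 0.00238), Slc25a37 by 1.08 ± 0.15 (1.64 at 4 h against 0.57 at 1 h, adjusted p = 6.28e-07). With LPS the 4 h ratio was lower for Slc19a2 with a difference of -1.48 ± 0.17 (-1.41 at 4 h against 0.07 at 1 h, adjusted p = 2.15e-08), Slc37a2 with a difference of -1.10 ± 0.16 (-1.28 at 4 h against -0.19 at 1 h, adjusted p = 2.55e-06), Slc20a1 with a difference of -1.01 ± 0.31 (0.61 at 4 h against 1.61 at 1 h, adjusted p = 0.0202). With IFG it was higher for Slc37a2 by 1.05 ± 0.16 (1.36 at 4 h against 0.32 at 1 h, adjusted p = 2.28e-05).

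The untreated RNA on each array was of the matching time, so a change of untreated cells over time and a change of treated cells over time cannot be told apart in these differences. The Slc20a1 difference is one of a declining rise, since both ratios were above 0. That of Slc39a5 joins unlike rows. With LPS 1 row went from -0.19 at 1 h to 2.14 at 4 h, and the other from -0.07 to 0.06. Of these differences, that of Slc25a37 with LPS was 0.60 with arrays scaled to an equal spread and 0.95 without LPS set 2 at 4 h, both under 2-fold; those of Slc20a1, Slc22a17, Slc37a2 (with either agent) and Slc6a4 were also under 2-fold in at least 1 alternative.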

How the results depend on the processing

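Of 274 alternative counts of called carriers, 251 stayed within 1.5 times the count reported, and of 82 calls of named carriers 53 held under every alternative run, 29 were lost under at least 1 and 0 changed direction. With single rows all 82 calls counted as held, those of Slc39a5 through 1 row alone. Its other row was not called and stood at -0.16 with LPS+2MA at 4 h. The 53 thus include Slc39a5 calls that its other row did not show. With arrays scaled to an equal spread the counts were 1 for IFG at 1 h, 4 for LPS against IFG at 4 h and 0 for IFG at 4 h against 1 h. With treated RNA in Cy3 only they were 5 for IFG at 4 h, 1 for 2MA at 4 h and 1 for LPS+IFG against LPS at 1 h. With treated RNA in Cy5 only they were 1 for 2MA at 1 h, 1 for 2MA at 4 h, 5 for LPS+IFG at 1 h, 10 for LPS+IFG at 2 h, 1 for LPS+2MA at 1 h and 2 for IFG at 4 h against 1 h. Leaving out 1 set at a time gave 1 to 2 for LPS at 1 h (1 without set 3), 1 to 2 for IFG at 2 h (1 without set 1), 0 to 2 for 2MA at 1 h (2 without set 2), 0 to 1 for 2MA at 2 h (0 without set 1 or set 2), 0 to 1 for LPS+IFG against LPS at 1 h (1 without LPS+IFG set 3 or LPS set 2), 1 to 2 for LPS+IFG against LPS at 4 h (2 without LPS+IFG set 2) and 0 to 2 for IFG at 4 h against 1 h (0 without set 1 at 1 h, 2 without set 1 or set 2 at 4 h). Within the margin of 1.5 times, leaving out 1 set gave 7 to 9 for LPS+IFG at 2 h (6 reported) and 11 to 14 at 4 h (10 reported). Every one of these lay above the reported count. For LPS+2MA it gave 4 to 7 at 2 h (5 reported) and 11 to 13 at 4 h (11 reported). The replicate block gave 0, 1 and 1 called carriers for LPS+IFG against LPS at 1, 2 and 4 h. It gave 0 at each time for LPS+2MA against LPS, and 9 for LPS against IFG at 4 h, the same counts as without it. The cause of the other shifts was not tested. Ratios of dim spots cannot be weighed here, since signal over background was not used.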
